A study of Mus musculus with 6 samples.

Results

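Fragments of cysteine and proline tRNAs were taken from a table of tRNA-derived small RNAs (tDRs) of mouse brain, which gives each fragment an ID and names the tRNAs it can come from, its parents. An ID was kept when all of its parents were cysteine tRNAs or all were proline tRNAs and at least 1 of them was a mature tRNA. This gave 16 cysteine and 14 proline IDs, 30 of the 591 IDs in the table. Brains of C57BL/6 mice, an inbred laboratory strain, were compared at 3 months (n = 3 libraries) and 22 months (n = 3 libraries); no other treatment or allele is given in the labels, which do not say whether a library came from 1 animal or from several, so a p-value here speaks of the scatter among libraries, which may be technical. The table holds tRNA fragments only, and so no marker gene against which the tissue could be checked. Small RNA libraries were made from total RNA of brain, and the values are counts of sequenced tags.

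A tRNA folds into a cloverleaf whose anticodon loop reads the codon and whose 3′ end, CCA, carries the amino acid. Cysteine is delivered by Cys-GCA, the tRNA with the anticodon GCA, and proline by Pro-AGG, Pro-CGG and Pro-TGG, each named with its anticodon in DNA letters. Cuts in the anticodon loop release 5′ and 3′ pieces of the molecule, for which the nuclease angiogenin is known, and cuts in the T arm release short 3′ fragments that keep the CCA end. The 5′ fragment of cysteine tRNA, which opens with a run of guanines, is known to repress translation initiation when cells are stressed, and a 5′ fragment of proline tRNA has been found on ribosomes.

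The table prints the sequence of each parent and not that of the fragment, so the parents show where a fragment can lie. Parents of the cysteine IDs comprised 9 mature tRNAs with 5 distinct sequences and 4 precursors, which extend beyond the mature ends, and those of the proline IDs 16 mature tRNAs with 6 distinct sequences and 9 precursors. For each set of IDs with the same parents, a window was sought that all parents contain and no other tRNA of the table contains, by exact match over 15 to 50 nt. Capitals mark the stretch that holds such windows, in Cys-GCA-1-1 for a set of 3 IDs and in the other cysteine tRNAs for a set of 6 IDs. Mature sequences are shown as the table gives them, 5′ to 3′ with T for U, because their few differences separate the sets.
Cys-GCA-1-1: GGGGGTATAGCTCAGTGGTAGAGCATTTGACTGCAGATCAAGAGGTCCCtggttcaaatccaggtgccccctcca
Cys-GCA-2-1: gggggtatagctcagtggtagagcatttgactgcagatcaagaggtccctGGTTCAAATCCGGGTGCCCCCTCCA
Cys-GCA-3-1: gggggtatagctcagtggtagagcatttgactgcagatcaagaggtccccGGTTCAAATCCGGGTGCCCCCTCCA
Cys-GCA-5-1: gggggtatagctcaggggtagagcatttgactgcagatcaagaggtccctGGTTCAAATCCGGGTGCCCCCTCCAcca
Cys-GCA-7-1: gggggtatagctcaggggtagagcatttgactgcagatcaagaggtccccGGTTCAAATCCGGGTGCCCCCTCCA

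Positions are counted from 1 at the 5′ end of the mature tRNA. Against Cys-GCA-3-1, the differences are C50T and G62A in Cys-GCA-1-1, C50T in Cys-GCA-2-1 and T16G in Cys-GCA-7-1. The set of 6 IDs has 7 mature parents and no precursor. Its windows lie within positions 51 to 75, start no later than 61 and end at 73 or beyond. A perfectly matching fragment thus covers position 62 and reaches into the CCA end, and these IDs are called the 3′-end set. Cys-GCA-5-1 is printed at 78 nt with a further CCA after that stretch, so in this parent the windows stop before the last CCA. The set of 3 IDs, with 11 parents, has windows within positions 1 to 49 that all cover position 16, on the 5′ side of the anticodon, though some also run across it; these are called the 5′ set. A further 2 IDs, with Cys-GCA-5-1 and Cys-GCA-7-1 as parents, have windows over the same 49 positions. The last 5 IDs name Cys-GCA-1-1, Cys-GCA-1-2 and 4 precursors, which share positions 1 to 49, but every stretch there also occurs in other listed cysteine tRNAs, so exact matching gives them no window of their own. Of all 591 IDs, 88 (14.9%) were of that kind.

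Proline tRNAs differ most at the first base of the anticodon, position 33. Capitals mark the shared stretches with windows for the largest proline set, 7 IDs with 21 parents of all 3 anticodons; Pro-TGG-1-1 is not among those parents and is printed without capitals, to show the bases that keep it out.
Pro-AGG-1-1: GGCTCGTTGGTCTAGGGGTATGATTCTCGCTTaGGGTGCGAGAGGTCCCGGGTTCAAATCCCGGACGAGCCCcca
Pro-CGG-1-1: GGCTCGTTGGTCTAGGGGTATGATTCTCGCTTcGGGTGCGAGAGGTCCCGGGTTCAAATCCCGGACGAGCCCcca
Pro-TGG-2-1: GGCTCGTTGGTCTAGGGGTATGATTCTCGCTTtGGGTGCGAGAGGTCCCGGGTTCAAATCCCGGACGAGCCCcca
Pro-TGG-1-1: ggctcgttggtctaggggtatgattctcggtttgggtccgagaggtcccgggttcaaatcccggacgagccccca

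Against Pro-AGG-1-1, Pro-CGG-1-1 differs by A33C and Pro-TGG-2-1 by A33T, while Pro-TGG-1-1 carries C30G, A33T and G38C. A perfectly matching fragment of the 21-parent set therefore stops short of position 33 or starts after it. On the 5′ side its windows end at positions 30 to 32, just before the anticodon, and on the 3′ side they start at positions 34 to 38 and end between 48 and 72. Which side each of the 7 IDs comes from was not determined. AS-tDR-000065, with 14 mature parents and no precursor, has windows that start between 39 and 61 and end at 74 or 75, and so reach the CCA end. AS-tDR-006899 names Pro-TGG-1-1 alone, with windows that start between 25 and 38 and also end at 74 or 75. Of the 14 proline IDs, 8 name all 3 anticodons, 5 name TGG only, 1 names AGG with TGG, and no ID was found that names AGG or CGG alone, so the AGG and CGG isoacceptors cannot be told apart here. IDs whose windows must reach the CCA end, judged in the first mature parent, made up 6 of 16 cysteine IDs (37.5%), 2 of 14 proline IDs (14.3%) and 79 of all 591 IDs (13.4%).

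**Figure D1:**
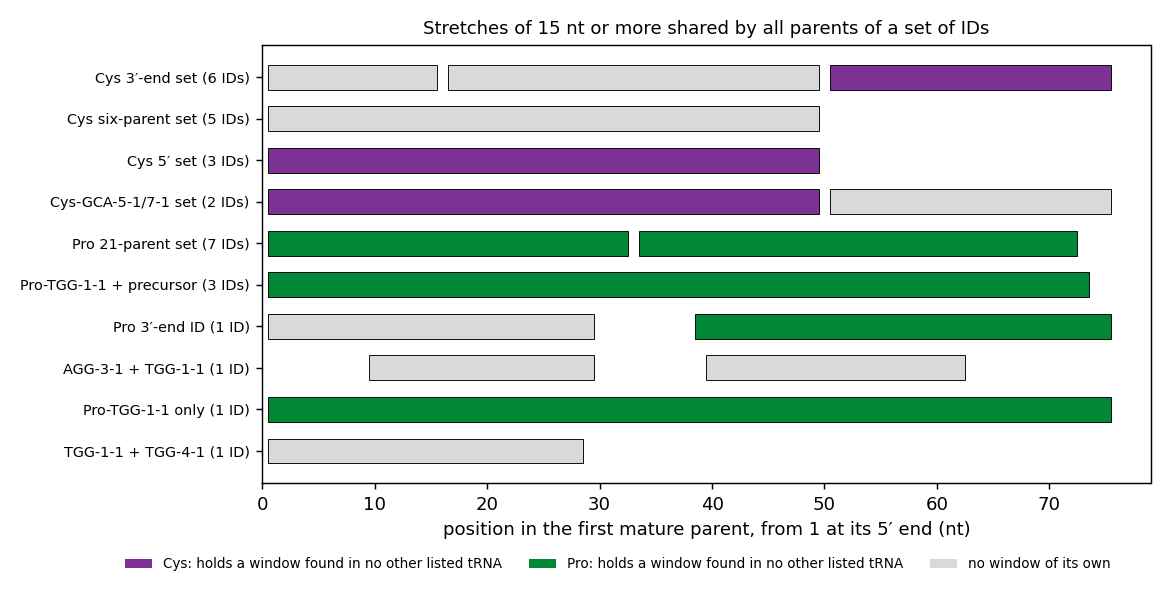
Stretches of 15 nt or more that all parents of a set of IDs share (bars), by position in the first mature parent (x axis, nt from the 5′ end), with 1 row for each set of cysteine (purple) or proline (green) IDs. Grey bars hold no window that is missing from every other listed tRNA; the coloured bar of the cysteine 3′-end set spans positions 51 to 75, and those of the 21-parent proline set lie on either side of position 33.

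The genes of these tRNAs are placed from RefSeq on GRCm38 (mm10), the build in the submitters' processing notes; the table's tRNA names are not tied to single RefSeq genes. RefSeq lists 57 cysteine GCA genes, of which 49 lie on chr6:47978997-48363603, 5 on chromosome 11, 2 on chromosome 9 and 1 on chromosome 17, all outside protein-coding genes of GENCODE vM21. Proline has 16 genes on 9 chromosomes, 6 of AGG, 3 of CGG and 7 of TGG. Of these 15 lie outside protein-coding genes and 1, a TGG gene at chr11:67291139-67291210, overlaps an exon of one. Neighbouring pairs of different anticodons occur, such as an AGG gene at chr1:165641634-165641705 and a CGG gene at chr1:165642271-165642342.

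Listed tags summed to between 44156 and 57425 at 3 months and between 71121 and 96130 at 22 months. Every 22 month library was thus deeper than every 3 month library, and age and depth cannot be told apart. The smallest value above 0 in a library was 8 to 17 tags, or 177 to 204 CPM (counts scaled to the library's listed tags), and a 0 thus stands for any level under that minimum. The library of 22 month replicate 3 listed the fewest IDs, 373 of 591 (63.1%) against 69.9% to 78.3% in the other 5. It listed 5 of the 16 cysteine IDs, where the others listed 11 to 14, and 4 of the 14 proline IDs, where the others listed 8 to 11. The log2 differences below are therefore also given without it; its part in the results beyond those values was not tested. A total of 290 IDs (49.1%) lay above the minimum in all 6 libraries, among them 4 cysteine and 3 proline IDs. CPM of single IDs below are scaled with TMM, a factor for library composition.

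Cysteine fragments, all from Cys-GCA, took shares of the listed tags that overlapped between the ages, and no cysteine ID passed the test. Their summed share was 0.493% (95% Wilson interval 0.439 to 0.553), 0.636% (0.567 to 0.714) and 0.747% (0.671 to 0.832) in replicates 1, 2 and 3 at 3 months, and 0.773% (0.712 to 0.840), 0.476% (0.435 to 0.522) and 0.374% (0.335 to 0.417) at 22 months. The highest and the lowest of these 6 libraries were both 22 month libraries, and the ages overlapped. Means were 0.625% ± 0.128 and 0.541% ± 0.207 (SD, n = 3 each), and the 22 month mean without replicate 3 was 0.625%. Intervals cover counting error only. By position, the 3′-end set supplied 63.3%, 70.7% and 70.0% of the cysteine tags at 3 months and 70.4%, 68.6% and 92.1% at 22 months. The last value is that of 22 month replicate 3, where 4 of the 6 IDs of the 3′-end set and 1 of the other 10 cysteine IDs were listed.

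**Figure D2:**
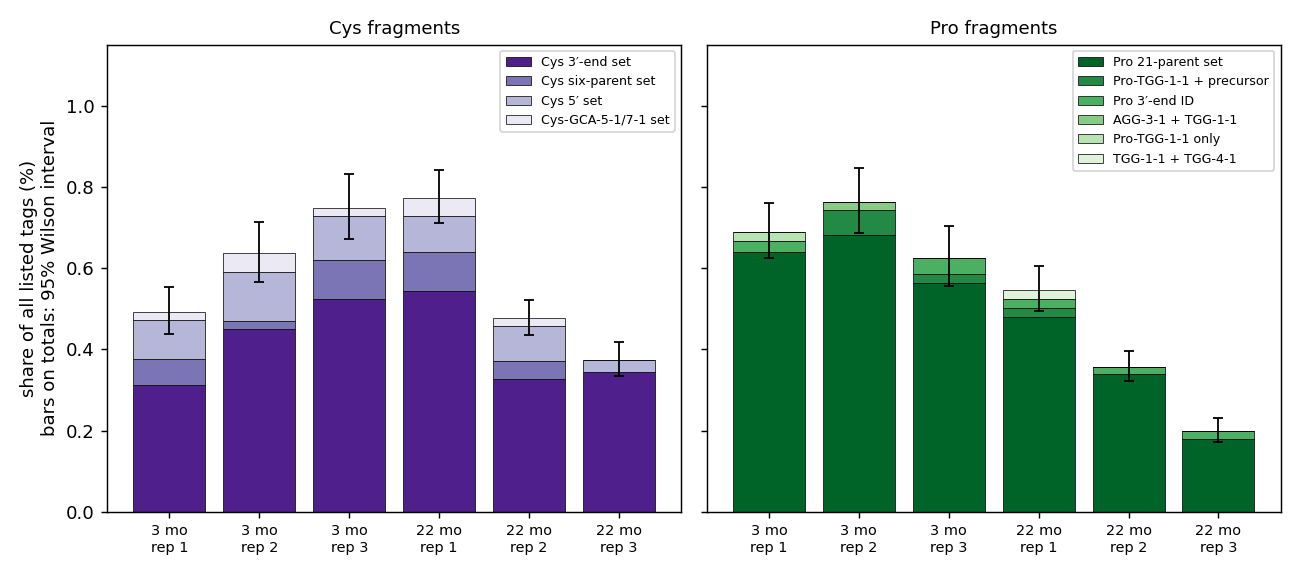
Share of all listed tags (y axis, percent) in each library (x axis) for cysteine (left) and proline (right) fragments, stacked by set of IDs with the same parents; error bars are 95% Wilson intervals of the total. Cysteine totals of the 2 ages overlap, while proline totals lie between 0.625% and 0.762% at 3 months and between 0.199% and 0.547% at 22 months.

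Of the 16 cysteine IDs, 12 passed the filter on low counts and were tested, and 0 rose and 0 fell (edgeR quasi-likelihood test over 439 IDs, Benjamini-Hochberg adjusted p under 0.05, lowest adjusted p = 0.537). Of all tested IDs 6.61% passed, 4.78% as higher and 1.82% as lower at 22 months. No cysteine ID had an unadjusted p under 0.05 in the main edgeR fit, against 25.5% of all tested IDs, and DESeq2 and limma-voom also called 0 and had 0 at an unadjusted p under 0.05. In edgeR, AS-tDR-009365 did without 3 month replicate 1 and AS-tDR-008343 did without 3 month replicate 2, and neither was among the 12. Both were at 0 in every 22 month library. Leaving out their only 3 month library at 0 let them pass the filter through 3 month libraries alone, so these p-values are no support for a difference. The median log2 difference was 0.20, with 7 positive and 5 negative values, beside a median of -0.16 over all tested IDs, of which 42.6% were positive and 57.4% negative. Without 22 month replicate 3 it was 0.30 (16 IDs tested), and it turned negative without 3 month replicate 1 (-0.19) or 2 (-0.10) and without 22 month replicate 1 (-0.32) or 2 (-0.05), with no filter on low counts (-0.11) and with limma-voom (-0.08). None of the 12 had ages whose CPM ranges lay apart, against 39.4% of all tested IDs (19.4% higher and 20.0% lower at 22 months).

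Within the 3′-end set, 4 of the 6 IDs were listed in every library, the only cysteine IDs that were. The most abundant, AS-tDR-000067, ranked 83 of 591 IDs by mean CPM and made up 32.9% to 37.6% of the cysteine tags in 5 libraries and 58.7% in 22 month replicate 3. It stood at 1463, 2077 and 2417 CPM in replicates 1, 2 and 3 at 3 months and at 2747, 1973 and 2545 at 22 months. The lowest library was 3 month replicate 1, and 22 month replicate 2 lay inside the 3 month range, so the ages overlapped. Its log2 difference was 0.29 (SE 0.25; edgeR adjusted p = 0.537, 0.329 to 0.848 over the alternatives) and 0.32 without 22 month replicate 3. AS-tDR-006032, with the same parents, stood at 645, 964 and 1168 CPM at 3 months and 916, 710 and 780 at 22 months. All 3 of its 22 month values fell within the 3 month range, and the log2 difference was -0.20, with SE 0.28 and an edgeR adjusted p of 0.685 (-0.11 without 22 month replicate 3).

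The other members of this set were nearer the listing minimum. AS-tDR-012673 had 346, 428 and 184 CPM at 3 months and 690, 433 and 301 at 22 months, which gave a log2 difference of 0.57, with SE 0.50 and an edgeR adjusted p of 0.537, the highest of the tested cysteine IDs, and 0.86 without 22 month replicate 3. Its ages overlapped, since 22 month replicate 3 lay below 3 month replicates 1 and 2. AS-tDR-006924 had 189, 407 and 287 CPM at 3 months and 398, 385 and 369 at 22 months, with all of its 22 month values close together and below 3 month replicate 2 (log2 difference 0.39, SE 0.45; edgeR adjusted p = 0.651; 0.49 without 22 month replicate 3). AS-tDR-010744 was listed in all libraries but 22 month replicate 3, with 173 to 225 CPM at 3 months against 385 (replicate 1) and 277 (replicate 2) among the 22 month libraries. Its log2 difference of 0.11 (SE 1.37) became 0.75 without 22 month replicate 3 and was -1.12 with limma-voom. AS-tDR-009365 was listed only in 3 month replicates 2 and 3, with 12 and 22 tags, and was not tested in the main edgeR fit.

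The windows of the 5′ set all cover position 16, on the side of Cys-GCA that opens with the run of guanines. They need not include that run, and some run across the anticodon, so how much of each fragment lies on that side was not determined. The summed share of the 5′ set among listed tags was 0.0958%, 0.120% and 0.106% at 3 months and 0.0886%, 0.0874% and 0.0295% at 22 months. These 22 month values lay below those of 3 months, replicates 1 and 2 by less than the counting intervals of single libraries. The order depends on scaling, since shares leave out the TMM factor, 1.11 in 3 month replicate 1 and 0.865 in 22 month replicate 2. With that factor, 22 month replicate 2 lay above 3 month replicate 1. For 0 of the 3 IDs did the CPM ranges of the ages lie apart. AS-tDR-001980 stood at 535, 321 and 430 CPM at 3 months and at 265, 385 and 0 at 22 months, the lowest log2 difference of the tested cysteine IDs (-0.98, SE 1.24; edgeR adjusted p = 0.674; -0.33 without 22 month replicate 3). AS-tDR-001971 had 330, 578 and 225 CPM at 3 months and 358, 385 and 0 at 22 months, with a log2 difference of -0.60 (SE 1.29), which became 0.05 without 22 month replicate 3. Both overlapped between the ages with and without that library. AS-tDR-001968 was the only ID of this set listed in 22 month replicate 3, at 342 CPM, its highest value, against 212 and 241 in the others at 22 months and 0, 257 and 307 at 3 months (log2 difference 0.50, SE 1.31; 0.36 without 22 month replicate 3).

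The remaining 7 cysteine IDs never exceeded 25 tags in a library and were all at 0 in 22 month replicate 3. AS-tDR-006291, of Cys-GCA-5-1 and Cys-GCA-7-1, was listed in the other 5 libraries at 184 to 226 CPM, and its log2 difference of -0.35 (SE 1.39) turned to 0.29 without that library. Its partner AS-tDR-013271 was listed in 2 libraries, 1 of each age. Among the 5 IDs with 6 parents, AS-tDR-008616 was listed in 4 libraries, AS-tDR-001955 and AS-tDR-001959 in 3 each, and AS-tDR-001973 and AS-tDR-008343 in 2 each. AS-tDR-001955 had a log2 difference of 0.45 (SE 2.19), which became 1.11 without 22 month replicate 3. AS-tDR-001959 had one of -0.59 (SE 2.22), which shrank to -0.00104 without 22 month replicate 3 and was -5.99 without 22 month replicate 1, its only 22 month library above 0. The value of AS-tDR-008616 was 0.40 (SE 1.80) and became 1.04 without 22 month replicate 3. These standard errors exceeded the differences. With each 0 replaced by 1 tag under the library's smallest value, the standard errors were 0.28 for AS-tDR-001955, 0.21 for AS-tDR-001959 and 0.19 for AS-tDR-006291, and none of these IDs passed the test.

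**Figure D3:**
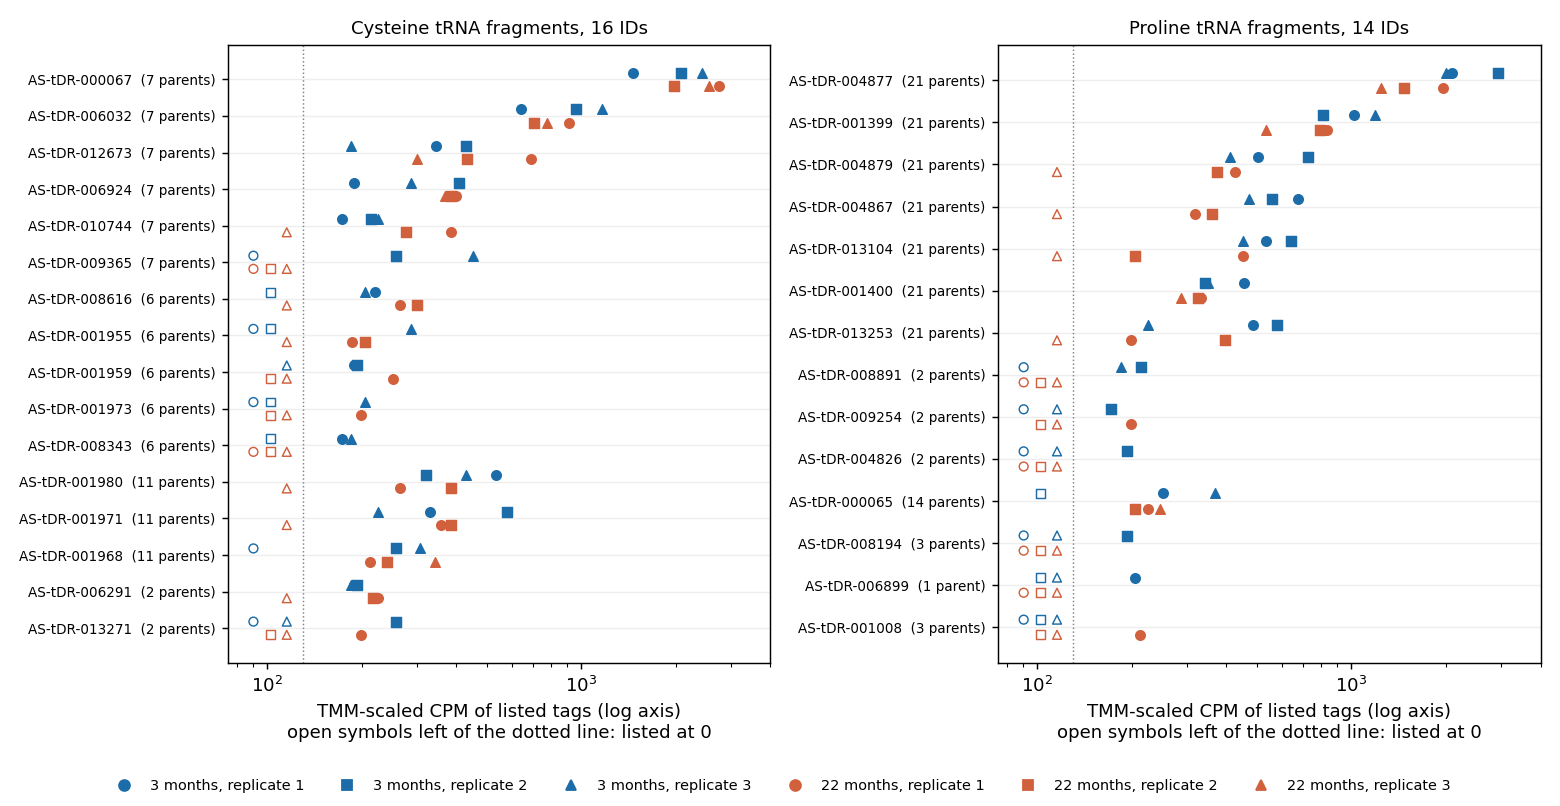
TMM-scaled CPM of every cysteine (left) and proline (right) ID (x axis, log scale; rows are IDs with their number of parents) in each library, blue for 3 months and orange for 22 months, with a symbol for each replicate; open symbols at the left stand for a listed 0. AS-tDR-000067 and AS-tDR-004877 lie highest, and 22 month replicate 3 is at 0 for 11 cysteine and 10 proline IDs.

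Fragments of Pro-AGG, Pro-CGG and Pro-TGG together took a smaller share of listed tags in every 22 month library than in any 3 month library, although no single proline ID passed the test. Such an order was common among single IDs: of all tested, 20.0% had TMM-scaled CPM ranges that lay apart and lower at 22 months. The proline shares are sums over IDs and leave out the TMM factor, so they are not on the scale of that percentage. Summed shares of tRNAs of other amino acids were not compared. The summed proline share was 0.690% (95% Wilson interval 0.625 to 0.761), 0.762% (0.686 to 0.847) and 0.625% (0.556 to 0.703) in replicates 1, 2 and 3 at 3 months. At 22 months it was 0.547% (0.495 to 0.604), 0.357% (0.321 to 0.397) and 0.199% (0.171 to 0.232). The 22 month libraries differed from one another by more than counting error, with replicate 3 lowest. Means were 0.692% ± 0.0686 and 0.368% ± 0.174 (SD, n = 3 each), a ratio of 0.531, and the 22 month mean without replicate 3 was 0.452%. Counting only the 3 IDs above the minimum in all 6 libraries, the means were 0.403% and 0.245%. The 21-parent set made up 87.7% or more of the proline tags in each of the 6 libraries.

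Of the 14 proline IDs, 8 were tested, and 0 rose and 0 fell (edgeR, lowest adjusted p = 0.220). None had an unadjusted p under 0.05 in the main edgeR fit, and 1 did in each of DESeq2 and limma-voom, where 0 passed after adjustment. Among the edgeR alternatives, 1 of the 8 did with library size only, RLE size factors or scaling to the smallest listed count, each time AS-tDR-004877. With zeros replaced, 2 of the 8 did. Without 3 month replicate 1, only AS-tDR-008891 did, which was not among the 8. It was at 0 in every 22 month library. Leaving out its 3 month library at 0 let it pass the filter through 3 month libraries alone, so its p-value is no support for a difference. The median log2 difference was -0.81, with 1 positive and 7 negative values, beside -0.16 and 57.4% negative over all tested IDs. It was -0.39 without 22 month replicate 3, with 8 of 10 tested IDs negative, and -0.42 over the 3 IDs above the minimum in all 6 libraries, where the median of all 290 such IDs was 0.02. Scaled by library size only, the median of all tested IDs moved from -0.16 to -0.35 and that of proline from -0.81 to -0.98. Proline thus lay 0.65 and 0.64 below the median of all IDs in the 2 scalings, and cysteine 0.36 and 0.37 above it. Over all alternatives, the cysteine median minus that of all IDs ran from -0.16 (without 22 month replicate 1) to 0.40 (IDs above 0 in all 6 libraries). It was also negative without 3 month replicate 1 or 2. For proline this value was negative in every alternative, from -1.25 (limma-voom) to -0.37 (without 22 month replicate 3). The CPM ranges of the ages lay apart for 3 of the 8, all lower at 22 months, against 20.0% of tested IDs in that direction.

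All 7 IDs of the 21-parent set were tested, and all had a negative log2 difference, between -1.32 and -0.28. Exact matching of parents bounds them to either side of position 33, and which side was not determined. They share parents and can overlap, so they are not independent of one another. AS-tDR-004877, the most abundant proline ID (rank 96 of 591 by mean CPM), stood at 2092, 2934 and 2008 CPM in replicates 1, 2 and 3 at 3 months and at 1964, 1468 and 1245 at 22 months. Every 22 month library lay below every 3 month library, replicate 1 at 22 months by a narrow margin. Its log2 difference was -0.59 (SE 0.26; edgeR adjusted p = 0.220, 0.147 to 0.521 over the alternatives) and -0.39 without 22 month replicate 3. AS-tDR-001399 stood at 1022, 814 and 1188 CPM at 3 months and 836, 794 and 534 at 22 months. Here 22 month replicate 1 lay above 3 month replicate 2, so the ages overlapped (log2 difference -0.48, SE 0.27; edgeR adjusted p = 0.302; -0.24 without 22 month replicate 3).

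The third ID of this set that every library listed, AS-tDR-001400, had 456, 343 and 348 CPM at 3 months and 332, 325 and 287 at 22 months. Its ranges lay apart by a small gap, and the log2 difference was -0.28, with SE 0.38 and an edgeR adjusted p of 0.685 (-0.16 without 22 month replicate 3). The other 4 IDs were listed in all libraries but 22 month replicate 3, whose 0 is part of their lower values. AS-tDR-004867 had 676, 557 and 471 CPM at 3 months and 318, 361 and 0 at 22 months, lower in all 3 libraries (log2 difference -1.32, SE 1.16; edgeR adjusted p = 0.537, 0.0522 to 0.749 over the alternatives; -0.68 without 22 month replicate 3). Its lowest adjusted p came with zeros set to 1 tag below the smallest listed count, where the log2 difference was -0.90 (SE 0.27). AS-tDR-013104 had 535, 643 and 451 CPM at 3 months and 451, 204 and 0 at 22 months, with 22 month replicate 1 just above the lowest 3 month library (log2 difference -1.30, SE 1.20; -0.67 without 22 month replicate 3).

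AS-tDR-013253 had 488, 578 and 225 CPM at 3 months and 199, 397 and 0 at 22 months (log2 difference -1.10, SE 1.28; -0.45 without 22 month replicate 3). AS-tDR-004879 had 503, 728 and 410 CPM at 3 months and 425, 373 and 0 at 22 months (log2 difference -1.03, SE 1.18; -0.39 without 22 month replicate 3). Both overlapped between the ages.

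**Figure D4:**
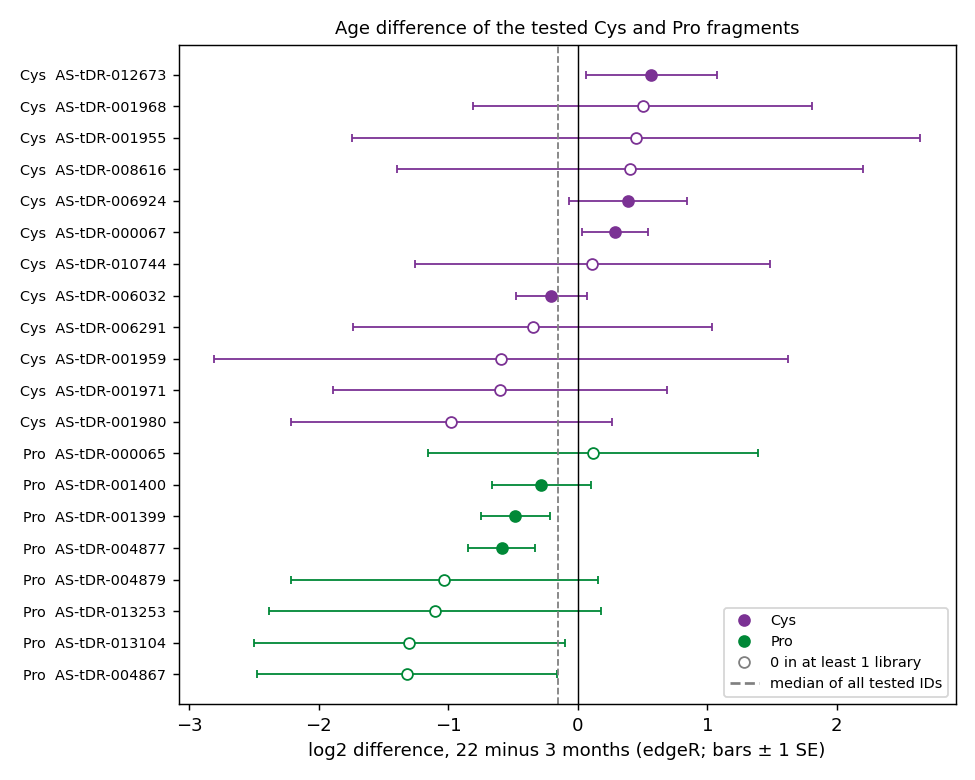
Log2 difference between 22 and 3 months (x axis; points, with bars of 1 SE) for the 12 cysteine and 8 proline IDs tested (rows); open points are IDs at 0 in at least 1 library, and the dashed line is the median of all tested IDs, -0.16. The 7 proline IDs of the 21-parent set lie between -1.32 and -0.28, and the cysteine IDs lie on both sides of 0.

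Outside the 21-parent set, proline fragments were scarce. AS-tDR-000065, whose windows reach the CCA end, was listed with 16, 0 and 18 tags at 3 months and 17, 17 and 18 at 22 months. It was the only tested proline ID with a positive log2 difference (0.12, SE 1.27; edgeR adjusted p = 0.963; 0.12 without 22 month replicate 3), and that value was negative when scaled by library size only (-0.13) or without 3 month replicate 2 (-0.38), its library at 0. In 22 month replicate 3 it was 1 of the 4 proline IDs listed. The 6 IDs with Pro-TGG-1-1 as a parent that were not tested in the main edgeR fit had 8 to 16 tags where they were listed at all. Among them AS-tDR-008891 was listed in 3 month replicates 2 and 3 only, with 10 and 9 tags. AS-tDR-008194, shared between Pro-AGG-3-1 and Pro-TGG-1-1, was listed in 3 month replicate 2 only, with 9 tags. No order between the ages can be read from values this close to the minimum.

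The fragments most like the leading member of each amino acid were sought by Pearson's r of log2 CPM over the 6 libraries, among IDs above the minimum in all of them. For AS-tDR-000067 of cysteine, out of 286 IDs, they were AS-tDR-000082 of Leu-CAG (r = 0.88), AS-tDR-012689 of Leu-TAA (r = 0.87) and AS-tDR-013688 of Leu-CAA (r = 0.84). For AS-tDR-004877 of proline, out of 287 IDs, they were AS-tDR-011784 of Val-CAC (r = 0.96), AS-tDR-012942 of Ser-GCT (r = 0.96) and AS-tDR-011549 of Thr-CGT (r = 0.95). All values share the same 6 libraries, scaling and depth, and the best of so many values from 6 points is high by selection, so these are a description.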

How the data were processed

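The authors deposited whole-number tag counts per tDR ID and library, per the file headers; the submitters' processing notes name FastQC, cutadapt, Novoalign and mm10, while the counting program and listing rule are not named in the labels or the file. Although titled as normalized, the counts have unequal totals and were treated as raw. The table has 3257 lines and repeats an ID's counts for each parent, so each of 591 IDs was used once. Columns named Age and WT, numbered 1 to 3, were read as 22 and 3 months, replicates 1 to 3; these names differ from the sample titles. No library pair within an age looked like a duplicate (chi-square of counts, per degree of freedom, 6.43 to 59.7).

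All IDs were fitted with edgeR 4.0.16 in R 4.3.3 (filterByExpr, minimum count 10, TMM, quasi-likelihood test, Benjamini-Hochberg adjustment over the 439 IDs kept, threshold 0.05). An SE is the size of the log2 difference over the root of its F statistic. DESeq2 1.42.0 and limma-voom (limma 3.58.1), other scalings and filters, zeros replaced, a replicate term and each library left out were alternatives. The edgeR step was tested on simulated data. Those were drawn with no listing minimum and with less scatter between libraries than here (fitted common dispersion 0.384). That test therefore does not measure what can be detected in these counts. No test was made over the lists, whose IDs share reads.

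IDs named are, for each amino acid, the 5 most abundant, up to 3 highest and 3 lowest tested log2 differences, those past the threshold, those at 0 in every library of one age and above 0 in every library of the other (no ID), and the most abundant proline ID of each anticodon combination; others named in the text were chosen after their values were seen. The members and lists were chosen with earlier results of these data known.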

Additional observations from a re-analysis of the deposited data

How the results depend on the processing

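Across 15 alternatives, 0 cysteine and 0 proline IDs passed the threshold; the lowest adjusted p of any member was 0.0522. Over all IDs 29 passed in edgeR, against 0 with library size only, scaling to the smallest listed count, no filter on low counts or the replicate block (78 to 127 at an unadjusted p under 0.05), 44 with RLE size factors, 64 over IDs above 0 in all 6 libraries, 84 with each 0 replaced by 1 tag under the library's smallest value, 46 with limma-voom, 97 with DESeq2, and 0 to 14 with one library left out (14 without 22 month replicate 2, 11 without 22 month replicate 3). With one library left out, the median log2 difference lay between -0.32 and 0.30 for cysteine and between -0.998 and -0.39 for proline, which stood at -1.43 with limma-voom. The difference in mean proline share, 22 minus 3 months, was -0.325 percentage points. It was -0.255 with the TMM-effective library size as denominator and -0.159 over IDs above 0 in all 6 libraries, and was not tested.

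Of the 20 cysteine and proline IDs tested, 12 kept their sign in every alternative that gave a value. AS-tDR-000065 turned to -0.13 with library size only, -0.11 when scaled to the smallest listed count and -0.16 with zeros replaced. AS-tDR-001959 turned to 0.30 and AS-tDR-006291 to 0.25 with zeros replaced. AS-tDR-010744 turned to -0.035 with library size only, -0.040 when scaled to the smallest listed count, -0.67 with the replicate block and -1.12 with limma-voom. With one library left out, AS-tDR-000065 ranged from -0.38 (without 3 month replicate 2) to 0.81, AS-tDR-001955 from -0.13 (without 3 month replicate 1) to 6.17 (without 3 month replicate 3, which leaves it at 0 at 3 months, so that the value rests on the prior count), AS-tDR-001968 from -0.086 (without 3 month replicate 1) to 1.05, AS-tDR-001971 from -1.06 to 0.049 (without 22 month replicate 3), AS-tDR-006291 from -0.73 to 0.29 (without 22 month replicate 3), AS-tDR-008616 from -0.11 (without 3 month replicate 2) to 1.04 and AS-tDR-010744 from -0.44 (without 22 month replicate 1) to 0.75. AS-tDR-001959 stayed negative, from -5.99 (without 22 month replicate 1, which leaves it at 0 at 22 months) to -0.00104.

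Replicate numbers are not stated to pair the libraries. Deviations from the age means of same-numbered libraries correlated at -0.46, 0.04 and -0.34, and not every library correlated best with its own number. Deviations within an age are tied to one another, so these values cannot decide whether libraries of the same number were handled together. With the replicate block the medians were 0.02 for cysteine and -1.20 for proline. Listing minima and counts of at most 207 tags per member limit what can be detected.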

Other observations

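Near the members lay 3 IDs that the choice leaves out. AS-tDR-012914, listed under 1 cysteine precursor only, Cys-GCA-3-2, had 0, 10 and 0 tags in replicates 1, 2 and 3 at 3 months and 22, 0 and 20 at 22 months. AS-tDR-004874, whose 31 parents include the 21 of the largest proline set and also leucine tRNAs, had 32, 21 and 26 tags at 3 months and 37, 25 and 0 at 22 months. AS-tDR-011158, also shared between proline and leucine tRNAs, was listed in 3 month replicate 3 only, with 14 tags.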
